A study of Huso dauricus x Acipenser schrenckii with 16 samples.

Results

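The genes described here are the cyclins, cyclin-dependent kinases (CDKs) and other regulators of oocyte maturation in the ovary of a hybrid sturgeon. They were chosen by protein description: every row of the gene table whose leading protein description names a CDK, an A, B, D or E type cyclin, a CDC25 (M-phase inducer) phosphatase, an aurora or polo-like kinase, WEE1, a subunit of the anaphase-promoting complex, CDC20 or F-box only protein 5. This gave 165 of 41685 genes, and 148 of them had enough counts to be tested. The rule also asked for the kinase mos under the full name proto-oncogene serine/threonine-protein kinase mos, and 0 rows held that phrase. A mos row with another wording would be missed. The rule also caught the binding partners and inhibitors of CDKs, 1 protein that binds aurora kinase A, and the row nccrp1, described as F-box only protein 50. In some rows the symbol and the description differ, so their identity is uncertain. Examples are clxn, described as CDK6, and tp53inp1, described as cyclin-E2.

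Ovary RNA came from adult females of Huso dauricus (mother) crossed with Acipenser schrenckii (father), kept under normal breeding conditions without further treatment. The tissue is whole ovary. The labels name 8 females of a population with a high caviar yield and 8 of a population with a low one, and there are 8 poly(A) libraries for each. Because each yield group is a population of its own, effects of yield and of population cannot be told apart. The labels used here give no ages. In bulk ovary, fewer cells of a type and less RNA per cell cannot be told apart.

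Fully grown fish oocytes wait in prophase of the first meiotic division until a hormone signal restarts the cycle. Entry into M phase is driven by maturation-promoting factor, made of the kinase CDK1 and a B-type cyclin. WEE1 kinases hold CDK1 inactive by phosphorylation, and CDC25 phosphatases remove that block with help from polo-like kinase. The anaphase-promoting complex, a ubiquitin ligase activated by CDC20, then destroys cyclin B. Oocytes store many of these transcripts before they are translated, so a transcript level does not give the level or activity of its protein.

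Libraries held 37362125 to 60873931 counts. In high yield, libraries came as 4 near-identical pairs, written 1+5, 2+6, 3+7 and 4+8, with Spearman's rho of 0.989 to 0.994 against at most 0.97 for any other 2 libraries, over 27855 genes. Each pair was counted as 1 sample, so high yield had n = 4 and low yield n = 8. Whether the members of a pair are separate females or 1 female was not tested. Within high yield, libraries 1 and 2 were close to each other (rho 0.959), as were 3 and 4 (0.945), while 1 and 3 were further apart (0.885). High-yield 3 was closer to low-yield 7 (0.966), and high-yield 4 to low-yield 4 (0.955), than 3 and 4 were to each other. On the first principal component, high-yield 1, 2, 5 and 6 lay at -157.6 to -134.8, low-yield 5 at -171 and low-yield 2 at -62.4. High-yield 3, 4, 7 and 8 lay at 75.1 to 85.9, among the rest of low yield (58 to 101.5). In low yield, libraries 2 and 5 stood apart on the second principal component, at -190 and -163, with the other 14 libraries between -10.5 and 89.2. These 2 libraries also had the most RNA of fibroblast, leukocyte, smooth muscle and endothelial markers: the summed FPKM of 48 fibroblast and matrix rows was 417 to 508 in the high-yield pairs, 1128 and 1272 in low-yield 2 and 5, and 306 to 474 in the rest of low yield. The 13 leukocyte rows summed to 13.9 to 24.8 FPKM in high yield, 412 and 263 in low-yield 2 and 5, and 7.54 to 60.7 in the others. The 17 smooth muscle rows reached 1806 FPKM in low-yield 5, against 53.1 to 107 in the high-yield pairs, 231 in low-yield 2 and 30 to 64.3 in the rest of low yield. The 19 endothelial rows summed to 8.71 to 17.3 FPKM in high yield, 62.6 and 97.9 in low-yield 2 and 5, and 10.4 to 22.7 in the others. The 10 haemoglobin rows of red blood cells summed to 3.71 to 11.4 FPKM in high yield, and to 37.2 FPKM in low-yield 5 and 4.77 to 12.4 in the rest, low-yield 2 included. The 164 oocyte rows, mostly egg-coat (zona pellucida) proteins, summed to 61170 to 95440 FPKM in high yield and 61150 to 192000 FPKM in low yield, the highest being low-yield 5. The 23 granulosa rows summed to 12.8 to 16.8 FPKM in high yield and 18.6 to 82.7 in low yield. These sums did not overlap, but the gap was narrow, and the sums of the other marker lists here overlapped. Among single genes, 0.193% had every high-yield pair below low yield. No such share was computed for sums of rows, so the 2 cannot be compared. Of the 16 granulosa rows tested with edgeR, 0 passed an adjusted p of 0.05, and 5 had a positive log2 fold change. At an unadjusted p under 0.05, 2 were lower in high yield (12.5%, beside 8.52% of all genes). The 24 rows of dividing cells summed to 1891 to 3702 FPKM in high yield and 1711 to 3324 in low yield. No row of these lists was at 0 in all 16 libraries, and the same held for all 41685 genes. The part of these marker levels in the results below was not tested.

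None of the 148 tested members passed an adjusted p of 0.05 (edgeR quasi-likelihood test, Benjamini-Hochberg over 30009 genes), and none of all 30009 genes did (0.0%). The smallest adjusted p was 0.574, for members and for all genes. At an unadjusted p under 0.05 there were 17 members (11.5%), beside 8.52% of all tested genes: 13 were higher in high yield, beside 5.18% of all genes, and 4 were lower, beside 3.35%. These 17 are named below with their values as a description, since a share near the background is no result about the members. The log2 fold change of high over low yield was positive for 93 of 148 members (62.8%), beside 48.6% of all genes, and its median was 0.15 over the members and -0.02 over all genes. The median standard error (SE) of a single member's log2 fold change was 0.35. It is the error of 1 row and not that of the median over the members, which was not tested. Without low-yield 2 and 5 the median was 0.02 over the members and 0.03 over all genes. The high-yield pairs lay all above or all below the 8 low-yield libraries in 0 members, beside 0.243% and 0.193% of all genes.

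**Figure D1:**
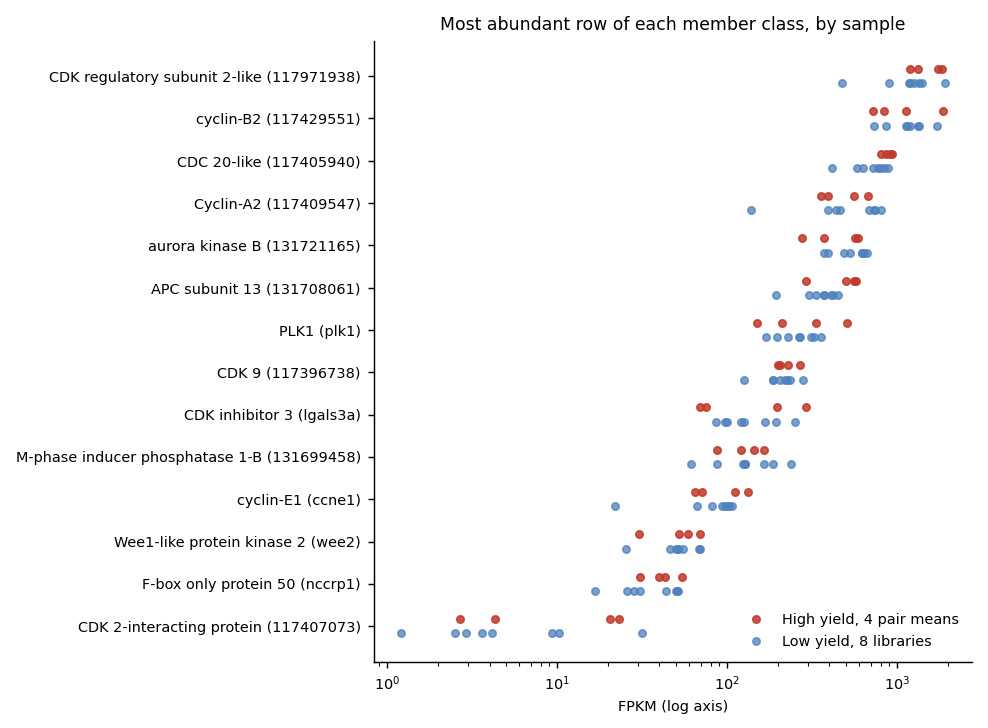
FPKM (log axis) of the most abundant row of each of the 14 member classes, with 4 high-yield pair means (red, upper row of points) and 8 low-yield libraries (blue, lower row). The groups overlap in each class, and the lowest point is low-yield 5 in the CDK regulatory subunit, cyclin-A2, CDK9, CDC25, cyclin-E1, WEE1 and F-box rows.

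Levels are given in FPKM, a count of fragments corrected for transcript length and library depth, so that genes can be compared per length. Together the 165 rows summed to 10560.0, 10040.0, 11990.0 and 11080.0 FPKM in high-yield pairs 1+5, 2+6, 3+7 and 4+8, and to 11090.0, 8104, 10390.0, 11760.0, 6532, 9982, 10350.0 and 10540.0 FPKM in low-yield libraries 1 to 8. As a share of all FPKM this was 0.822% to 1.01% in high yield, and 0.434% in low-yield 5, 0.66% in low-yield 2 and 0.819% to 0.989% in the other low-yield libraries. Expression was concentrated: the 10 most abundant rows held 60.0% of the members' FPKM, 22 rows averaged at least 100 FPKM, 101 lay between 1 and 100, and 42 were under 1. Low-yield 5 was the lowest of the 12 samples in 61 of the 148 tested members (41.2%, beside 26.1% of all tested genes) and the highest in 0.

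B-type cyclins, the regulatory subunit of maturation-promoting factor, were the class with the most RNA. Their 11 rows, all tested, summed to 2317, 2550.0, 3533 and 2415 FPKM in the high-yield pairs, and to a lowest of 1704, a median of 2688 and a highest of 3268 FPKM in low yield. The most abundant was cyclin-B2 LOC117429551. It had 725, 837, 1852 and 1122 FPKM in the high-yield pairs, and 732 to 1727 FPKM with a median of 1168 in low yield. Pair 3+7 was the highest of all samples, pair 1+5 the lowest, and the groups overlapped (log2 fold change -0.00, SE 0.38, adjusted p = 0.998). The second cyclin-B2 row, LOC117428092, had 85.1, 168, 354 and 181 FPKM in the high-yield pairs and 48.6 to 284 FPKM, with a median of 244, in low yield. It stood 4.52 to 17.8 times below the first in the individual samples, and it also peaked in pair 3+7.

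Cyclin-B1 was listed in 6 rows that stand in 2 runs of 3 consecutive rows in the table's gene order. In the first run are LOC117404009, LOC117963921 and LOC117963946, in the second LOC117966120, LOC117404013 and LOC117404010. LOC117404010 was the most abundant, with 685, 776, 576 and 463 FPKM in the high-yield pairs and 306 to 559 FPKM, with a median of 453, in low yield. Of the 4 pairs, 3 were above every low-yield library and pair 4+8 lay among these libraries (log2 fold change 0.52, SE 0.27, adjusted p = 0.599). LOC117963946 had 66, 71, 52.6 and 37.3 FPKM in high yield and 26.5 to 46.5 FPKM, with a median of 38, in low yield, the same order of the pairs (log2 fold change 0.57, SE 0.26, unadjusted p = 0.0439, adjusted p = 0.581). LOC117966120 had 352, 356, 184 and 122 FPKM in high yield and 125 to 251 FPKM, with a median of 172, in low yield, so that pairs 1+5 and 2+6 were above all low-yield libraries and pair 4+8 below them.

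The other 3 cyclin-B1 rows had another order of samples. LOC117963921 had 38.2, 31.1, 98.5 and 82.3 FPKM in the high-yield pairs, against 18.2 FPKM in low-yield 5, a median of 84.3 and a highest value of 108 FPKM in low yield. LOC117404009 had 79.6, 67.5, 135 and 97.4 FPKM in high yield and 63.3 to 168 FPKM, with a median of 124, in low yield. LOC117404013 had 107, 91.1, 154 and 129 FPKM in high yield and 48.1 to 158 FPKM, with a median of 130.2, in low yield. In these 3 rows pairs 3+7 and 4+8 were above pairs 1+5 and 2+6, and low-yield 5 was the lowest of the low-yield libraries. Their log2 fold changes were -0.20, -0.28 and 0.09, with SEs of 0.47, 0.35 and 0.32. Where near-identical copies share reads, how the authors' counting split them is uncertain, for these rows and for the other copies named below.

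**Figure D2:**
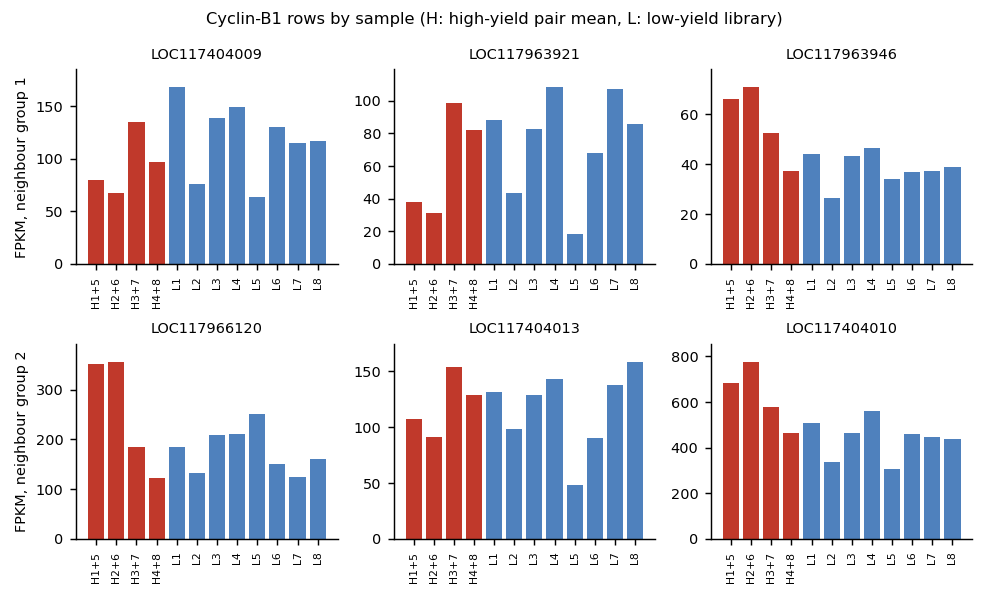
FPKM of the 6 cyclin-B1 rows, 1 panel each with its own axis from 0, in the high-yield pair means (H, red) and the low-yield libraries (L, blue). Each line of panels is 1 run of consecutive rows; LOC117963946, LOC117966120 and LOC117404010 are highest in pairs H1+5 and H2+6, and the other rows are not.

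Cyclin-B3, a B-type cyclin that takes part in the metaphase to anaphase step of meiosis in flies and mice, had 3 rows. The most abundant, LOC117430807, had 109.7, 96.2, 76.7 and 99.6 FPKM in the high-yield pairs and 43.1 to 122 FPKM, with a median of 92.8, in low yield (log2 fold change 0.16, SE 0.22). LOC117973236 averaged 32.2 ± 10.3 FPKM in high yield and 24.3 ± 9.23 FPKM in low yield, and LOC117412624 averaged 31.8 ± 8.28 and 30.3 ± 9.98 FPKM (SD, n = 4 and 8). Their groups overlapped.

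A-type cyclins work with CDK2 and CDK1 in S phase and at entry into M phase, and cyclin A1 is the germline form in mice. Of 6 rows, 4 were tested. Cyclin-A2 LOC117409547 had 391, 358, 559 and 675 FPKM in the high-yield pairs, and 741, 459, 729, 802, 137, 686, 394 and 440.0 FPKM in low-yield 1 to 8, where low-yield 5 was far below the rest (log2 fold change -0.09, SE 0.39). The second cyclin-A2 row, LOC117420984, had 270.5, 238, 255 and 398 FPKM in high yield, against 99.1 FPKM in low-yield 5 and 298 to 347 FPKM in the rest of low yield. Cyclin-A1 LOC117406242 had 193, 192, 426 and 326 FPKM in high yield and 209 to 542 FPKM, with a median of 347, in low yield. The second cyclin-A1 row, LOC117407197, had 166, 221, 116 and 97.9 FPKM in the pairs, so that 1+5 and 2+6 were above 3+7 and 4+8 where the first row had them below, and 49.4 to 202 FPKM with a median of 106 in low yield. Their log2 fold changes were -0.25 (SE 0.39) and 0.32 (SE 0.41), smaller than or near their errors.

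D and E cyclins drive the G1 to S transition of dividing cells. Of 13 rows, 10 were tested and 0 had an unadjusted p under 0.05. Cyclin-E1 ccne1 was the most abundant, with 71.2, 65, 111 and 133 FPKM in the high-yield pairs and 22 to 107 FPKM, with a median of 95.5, in low yield. Cyclin-D3 LOC131702178 had 112, 57.9, 11 and 11.6 FPKM in high yield and 5.06 to 56.3 FPKM, with a median of 17.1, in low yield. Its 2 highest low-yield values, 56.3 and 41.9 FPKM, were in libraries 2 and 5, and pairs 1+5 and 2+6 were above both (log2 fold change 1.05, SE 0.60, adjusted p = 0.616).

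CDK1, the catalytic subunit of maturation-promoting factor, was listed in 2 rows as CDK1-B. LOC117418033 had 64.6, 42.3, 40.6 and 27.4 FPKM in the high-yield pairs, and 30, 26.6, 28.6, 32.3, 20.7, 27.2, 35.9 and 31.4 FPKM in low-yield 1 to 8. Pairs 1+5, 2+6 and 3+7 were above every low-yield library and pair 4+8 was among them (log2 fold change 0.60, SE 0.24, unadjusted p = 0.0236, adjusted p = 0.576). LOC117415121 had 36, 28, 33.5 and 31.7 FPKM in high yield and 14.1 to 38.5 FPKM, with a median of 31.6, in low yield (log2 fold change 0.13, SE 0.23). The first row was the higher of the pair of copies in 8 of 16 libraries. Both were far below cyclin-B2 LOC117429551, whose mean over all 16 libraries was 1159 FPKM, beside means of 36.4 and 31.4 FPKM.

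Of 49 rows described as kinases of the CDK and CDK-like group, 43 were tested, with a median log2 fold change of 0.04. At an unadjusted p under 0.05, 6 were higher and 2 lower in high yield (18.6% together, beside 8.52% of all genes). The most abundant was CDK9 LOC117396738, a kinase of transcription elongation, with 199, 205, 229 and 269 FPKM in the high-yield pairs and 125 to 279.7 FPKM, with a median of 212, in low yield. Its groups overlapped, with a log2 fold change of 0.18 (SE 0.21). CDK2 LOC117966925, the partner of cyclins E and A, averaged 27 ± 6.01 FPKM in high yield and 25.8 ± 9.23 in low yield. CDK4 LOC117962597, the partner of D cyclins, averaged 47.5 ± 4.54 and 50.8 ± 10.5 FPKM (SD, n = 4 and 8).

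CDK7, which phosphorylates and activates other CDKs and also RNA polymerase II, had 2 rows that were both higher in high yield at an unadjusted p under 0.05. LOC117974168 had 4.67, 4.58, 2.45 and 2.68 FPKM in the high-yield pairs and 1.99 to 3.03 FPKM, with a median of 2.24, in low yield (log2 fold change 0.58, SE 0.22, unadjusted p = 0.0186, adjusted p = 0.574). LOC117973384 had 22.6, 23.1, 9.02 and 12.1 FPKM in high yield and 9.44 to 15 FPKM, with a median of 11.2, in low yield (log2 fold change 0.53, SE 0.22, adjusted p = 0.578). For each of them, pairs 1+5 and 2+6 were above every low-yield library, and pairs 3+7 and 4+8 were not. Without pair 2+6 the log2 fold change of LOC117973384 was 0.34. CDK17 LOC117420135, a kinase of the PCTAIRE group, had 13.3, 10, 2.75 and 5.92 FPKM in high yield and 2.96 to 5.83 FPKM, with a median of 4.67, in low yield (log2 fold change 0.75, SE 0.28, unadjusted p = 0.0183, adjusted p = 0.574). Pairs 1+5 and 2+6 were well above the low-yield libraries, pair 4+8 just above them and pair 3+7 below them, and without pair 1+5 the log2 fold change was 0.46. Other CDK17 rows did not reach an unadjusted p of 0.05. The most abundant, LOC117963530 (mean 17.8 FPKM), had a log2 fold change of 0.26 (SE 0.26). LOC117415439 had 0.42 (SE 0.32) and LOC117412230 had -0.17 (SE 0.30). CDK-like 2 LOC117408877 had 5.33 FPKM in pair 1+5 and 1.24, 0.322 and 2.25 FPKM in the other pairs, against 0.169 to 1.58 FPKM in low yield (log2 fold change 1.36, SE 0.59, unadjusted p = 0.0356, adjusted p = 0.58), and its log2 fold change without pair 1+5 was 0.61.

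CDK10 LOC117425075 had 12.5, 12.6, 6.36 and 12.4 FPKM in the high-yield pairs and 3.91 to 10.1 FPKM, with a median of 7.96, in low yield (log2 fold change 0.49, SE 0.21, unadjusted p = 0.0325, adjusted p = 0.579). Here it was pair 3+7 that lay among the low-yield libraries.

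CDK11B and CDK13, kinases linked to splicing and to transcription, had the lowest unadjusted p of the members lower in high yield. CDK11B LOC117425622 had 9.85, 7.14, 5.87 and 7.17 FPKM in the high-yield pairs, and 10.8, 36.7, 15.2, 15.1, 9.28, 29.9, 11.8 and 7 FPKM in low-yield 1 to 8 (log2 fold change -1.05, SE 0.32, unadjusted p = 0.00513, adjusted p = 0.574). Low-yield 2 and 6 held the 2 highest values, and low-yield 5 and 8 lay within the range of the pairs. CDK13 LOC117394448 had 4.6, 3.73, 2.71 and 6.08 FPKM in high yield, and 6.37, 15.6, 7.7, 8.8, 4.6, 13.1, 5.83 and 5.19 FPKM in low-yield 1 to 8 (log2 fold change -0.88, SE 0.28, unadjusted p = 0.00739, adjusted p = 0.574). Again low-yield 2 and 6 were the highest. The second copies did the same: CDK11B LOC117963639 had 11.2 and 9.16 FPKM in low-yield 2 and 6 and 2.47 to 6.34 in the others, against 2.04 to 4.62 FPKM in the high-yield pairs, and CDK13 LOC117400202 had 5.85 and 6.6 FPKM in low-yield 2 and 6 and 1.11 to 2.44 in the others, against 0.912 to 2.6 FPKM. Without low-yield 2 and 6, the log2 fold changes of LOC117425622 and LOC117394448 were -0.70 and -0.67, and those of LOC117963639 and LOC117400202 were -0.39 and -0.35.

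**Figure D3:**
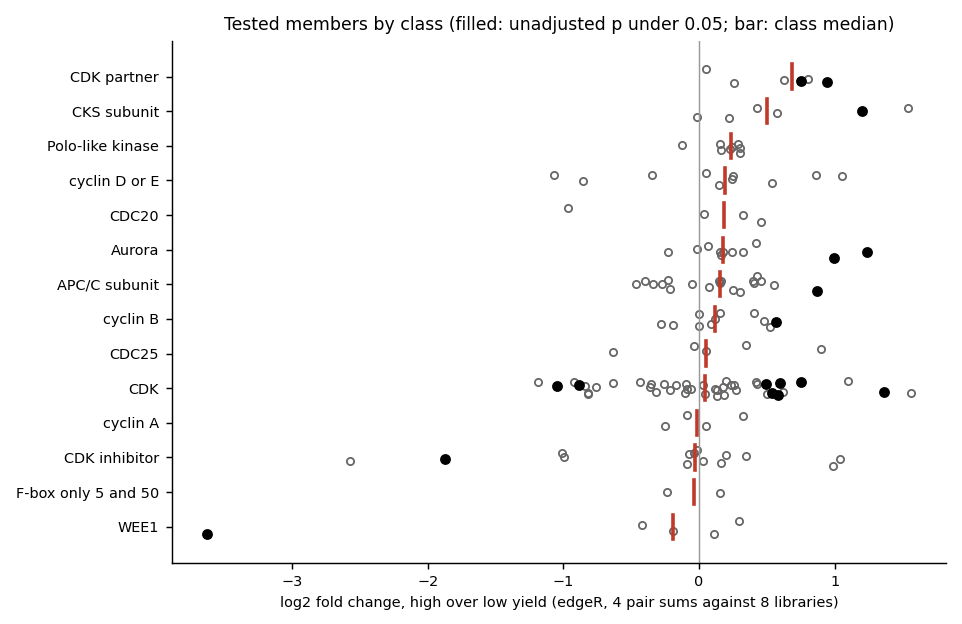
Log2 fold change of high over low yield (x axis, edgeR, 4 pair sums against 8 libraries) for the 148 tested members, 1 line per class; filled points have an unadjusted p under 0.05 and red bars are class medians. Points of most classes lie on both sides of 0, and the medians run from -0.19 (WEE1) to 0.69 (CDK partners).

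CKS proteins are small subunits that bind CDKs and help them reach substrates phosphorylated before. The row with the highest mean level of all members was the CKS2-like row LOC117971938. It had 1332, 1197, 1849 and 1746 FPKM in the high-yield pairs, and 1257, 901, 1174, 1920.0, 475, 1186, 1403 and 1341 FPKM in low-yield 1 to 8, with low-yield 5 the lowest (log2 fold change 0.42, SE 0.32, adjusted p = 0.68). The other CKS2-like row, LOC117409538, had a mean over libraries 34.8 times lower. Of 4 rows described as CKS1, LOC117395462 had the second highest mean (1.56 FPKM), close to LOC117401520 (1.59 FPKM). LOC117395462 had 3.52, 3.55, 0.648 and 1.03 FPKM in high yield and 0.539 to 1.41 FPKM, with a median of 0.924, in low yield (log2 fold change 1.20, SE 0.46, unadjusted p = 0.0192, adjusted p = 0.574). Again pairs 1+5 and 2+6 were above all low-yield libraries and the other pairs among them. Over all 6 CKS rows, 5 had a positive and 1 a negative log2 fold change, beside 48.6% positive over all genes.

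Of 16 CDK inhibitor rows, 14 were tested, and 6 had a positive and 8 a negative log2 fold change. The most abundant, lgals3a, is described as CDK inhibitor 3, a phosphatase that acts on CDKs, although its symbol is that of a galectin, so its identity is uncertain. It had 292, 195, 68.8 and 74.9 FPKM in the high-yield pairs and 86.3 to 249.7 FPKM, with a median of 123, in low yield. CDK inhibitor 1 (p21) LOC117964374 had 37.5, 39.1, 33.5 and 39.6 FPKM in high yield, against 230.3 and 196 FPKM in low-yield 2 and 5 and 20.5 to 62.1 FPKM in the rest of low yield (log2 fold change -1.01, SE 0.63, adjusted p = 0.638). Low-yield 2 and 5 are the libraries with the most fibroblast, leukocyte and smooth muscle marker RNA. CDK inhibitor 1C (p57) LOC117432174, which restrains cyclin E and CDK2, had 0.717, 0.373, 2.54 and 1.41 FPKM in high yield, and 1.33, 17.5, 3.21, 4.8, 5.25, 8.6, 1.85 and 2.81 FPKM in low-yield 1 to 8 (log2 fold change -1.87, SE 0.64, unadjusted p = 0.0112, adjusted p = 0.574). Pairs 1+5 and 2+6 were below every low-yield library, pairs 3+7 and 4+8 were not. Leaving out low-yield 2 and 5 gave a log2 fold change of -1.44.

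CDK partners other than cyclins filled 9 rows, of which 6 were tested. All 6 had a positive log2 fold change, beside 48.6% of all genes, and the class median was 0.69. These 6 rows are copies under only 3 descriptions. The CDK5 activator 1 rows LOC117394157 and LOC117399448 had log2 fold changes of 0.05 (SE 0.23) and 0.26 (SE 0.21). CDK2-interacting protein LOC117410335, which binds CDK2 in human cells, had 16.5, 13.9, 9.83 and 6.37 FPKM in the high-yield pairs and 2.99 to 9.93 FPKM, with a median of 5.29, in low yield (log2 fold change 0.94, SE 0.40, unadjusted p = 0.0332, adjusted p = 0.579). Its copy LOC117407073 had 23.1, 20.6, 4.33 and 2.67 FPKM in high yield, against 31.7 FPKM in low-yield 2 and 1.2 to 10.3 FPKM in the rest of low yield. CDK2-associated protein 1 LOC117426438, a regulator of CDK2 in human cells, had 11.7, 7.49, 12.8 and 5.37 FPKM in high yield and 3.45 to 8.15 FPKM, with a median of 6.25, in low yield (log2 fold change 0.75, SE 0.34, unadjusted p = 0.0419, adjusted p = 0.581), and without pair 3+7 its log2 fold change was 0.43. The groups overlapped in all of these rows.

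The switch that sets CDK1 activity held few abundant rows. Of the 6 CDC25 rows, which remove the inhibitory phosphates, 1 carried most RNA: M-phase inducer phosphatase 1-B LOC131699458 had 144, 165, 87.5 and 121 FPKM in the high-yield pairs and 61.4 to 239 FPKM, with a median of 127, in low yield (log2 fold change -0.04, SE 0.24). Its mean was 146 times that of the second row with this description. Of the 5 WEE1 rows, which add those phosphates, wee2, the oocyte form in mammals, was the most abundant. It had 52, 58.9, 69.2 and 30.2 FPKM in high yield and 25.3 to 69.5 FPKM, with a median of 51.3, in low yield (log2 fold change 0.11, SE 0.26). The WEE1-like 2 row LOC117419728 had the most negative log2 fold change of all members, -3.63 (SE 1.64, unadjusted p = 0.0441, adjusted p = 0.581), at levels close to 0: 0.0192, 0.00428, 0.0225 and 0 FPKM in the high-yield pairs, and 0 to 0.592 FPKM in low yield, with 0 in libraries 1 and 6.

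Polo-like kinase 1, which activates CDC25 and acts in spindle assembly, had a main row, plk1, with 507, 333, 150.3 and 209.5 FPKM in the high-yield pairs and 169 to 355 FPKM, with a median of 268, in low yield. Pair 1+5 was the highest and pair 3+7 the lowest of all samples (log2 fold change 0.16, SE 0.28, adjusted p = 0.86). PLK3 LOC117416711, a stress-responsive polo-like kinase, averaged 70 ± 31.4 FPKM in high yield and 78.9 ± 32.3 FPKM in low yield (SD, n = 4 and 8). Of the 8 polo-like kinase rows, 7 had a positive log2 fold change, 0 had an unadjusted p under 0.05 and the median was 0.24.

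Aurora kinases B and C are the catalytic subunits of the chromosomal passenger complex, which corrects the attachment of chromosomes to the spindle, and aurora C is the germ-cell form in mammals. The 6 aurora B rows did not share 1 pattern. The most abundant, LOC131721165, had 369.7, 277, 587 and 562 FPKM in the high-yield pairs and 371 to 669.5 FPKM, with a median of 575, in low yield (log2 fold change -0.23, SE 0.29). In that row pairs 3+7 and 4+8 were above 1+5 and 2+6, and in LOC131696638 they were below, with 587, 711, 342 and 148 FPKM in the high-yield pairs, and 252, 156, 191, 266, 258, 101, 298 and 237 FPKM in low-yield 1 to 8. Pairs 1+5, 2+6 and 3+7 were above every low-yield library and pair 4+8 below 7 of the 8 (log2 fold change 0.99, SE 0.40, unadjusted p = 0.0246, adjusted p = 0.576). LOC117407894 followed that order at lower levels, with 37.4, 59.4, 17.9 and 7.75 FPKM in high yield and 14.6, 15.5, 9.39, 12.7, 17.9, 5.23, 15.6 and 11.7 FPKM in low-yield 1 to 8 (log2 fold change 1.24, SE 0.43, unadjusted p = 0.012, adjusted p = 0.574). Without pair 2+6 these log2 fold changes were 0.70 and 0.71, so the second depends on that pair by more than 1.5 times.

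Aurora B LOC117404566 had 46.1, 40.8, 28.3 and 39.2 FPKM in the high-yield pairs and 23.3 to 35.7 FPKM, with a median of 27.7, in low yield, so that 3 pairs were above every low-yield library (log2 fold change 0.42, SE 0.21, adjusted p = 0.593). LOC117962985 averaged 269 ± 52.1 FPKM in high yield and 280.1 ± 47.4 in low yield, and LOC117962975 averaged 61.6 ± 4.22 and 56 ± 7.92 FPKM (SD, n = 4 and 8). The 4 aurora C rows stood in 2 pairs of neighbouring rows. LOC117962444 averaged 79.3 ± 15.8 FPKM in high yield and 72.4 ± 19.1 in low yield, its neighbour LOC117420884 averaged 53.8 ± 10.3 and 48.6 ± 10.3 FPKM, LOC117430562 averaged 72.5 ± 37.5 and 73.7 ± 21.8 FPKM, and its neighbour LOC131696535 averaged 31.8 ± 5.92 and 26.3 ± 4.48 FPKM (SD, n = 4 and 8). Over the whole class the summed level was 1503, 1635, 1639 and 1477 FPKM in the high-yield pairs and 1018 to 1647 FPKM in low yield.

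All 19 rows of the anaphase-promoting complex were tested, with a median log2 fold change of 0.16. An APC13 row and a CDC26 row had the highest mean levels. APC13 LOC131708061 had 560.0, 291, 498 and 577 FPKM in the high-yield pairs and 195 to 451 FPKM, with a median of 371, in low yield (log2 fold change 0.42, SE 0.29, adjusted p = 0.659). Subunit CDC26 LOC117964687 had 279.6, 259.8, 377 and 356 FPKM in high yield and 87.8 to 341 FPKM, with a median of 254, in low yield. In these rows low-yield 2 was the lowest of all samples. Next in level, anapc4 averaged 102 ± 27.4 FPKM in high yield and 122 ± 41.9 in low yield, and subunit 5 LOC117426611 averaged 83.6 ± 19.5 and 115 ± 29.3 FPKM (SD, n = 4 and 8). The second APC13 row, LOC117397474, had 4.98, 5.59, 10.8 and 12.1 FPKM in high yield and 3.11 to 8.77 FPKM, with a median of 3.92, in low yield (log2 fold change 0.87, SE 0.36, unadjusted p = 0.0319, adjusted p = 0.579). Here pairs 3+7 and 4+8, not 1+5 and 2+6, were above all low-yield libraries.

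CDC20, the activator of that complex at metaphase, had 1 dominant row. LOC117405940 had 806, 859, 929.6 and 906 FPKM in the high-yield pairs, and 833, 415, 775, 881, 582, 629.7, 719 and 794 FPKM in low-yield 1 to 8, where libraries 2 and 5 were the lowest (log2 fold change 0.32, SE 0.30, adjusted p = 0.732). The second row, LOC117416929, had 66.8, 75.2, 96.2 and 42.4 FPKM in high yield and 18.9 to 80.8 FPKM, with a median of 53.3, in low yield. The 2 rows of CDC20 B were near 0: LOC131699050 averaged 0.224 ± 0.113 FPKM in high yield and 0.223 ± 0.161 in low yield, and LOC117420519 averaged 0.0911 ± 0.0533 and 0.182 ± 0.104 FPKM (SD, n = 4 and 8). F-box only protein 5 (EMI1), an inhibitor of the complex, had 1 row, fbxo5, at 3.43, 2.41, 2.5 and 3.37 FPKM in high yield and 1.69 to 4.46 FPKM, with a median of 3.68, in low yield (log2 fold change -0.24, SE 0.24). The row nccrp1 averaged 41.9 ± 9.63 FPKM in high yield and 37.2 ± 13.4 in low yield (SD, n = 4 and 8).

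**Figure D4:**
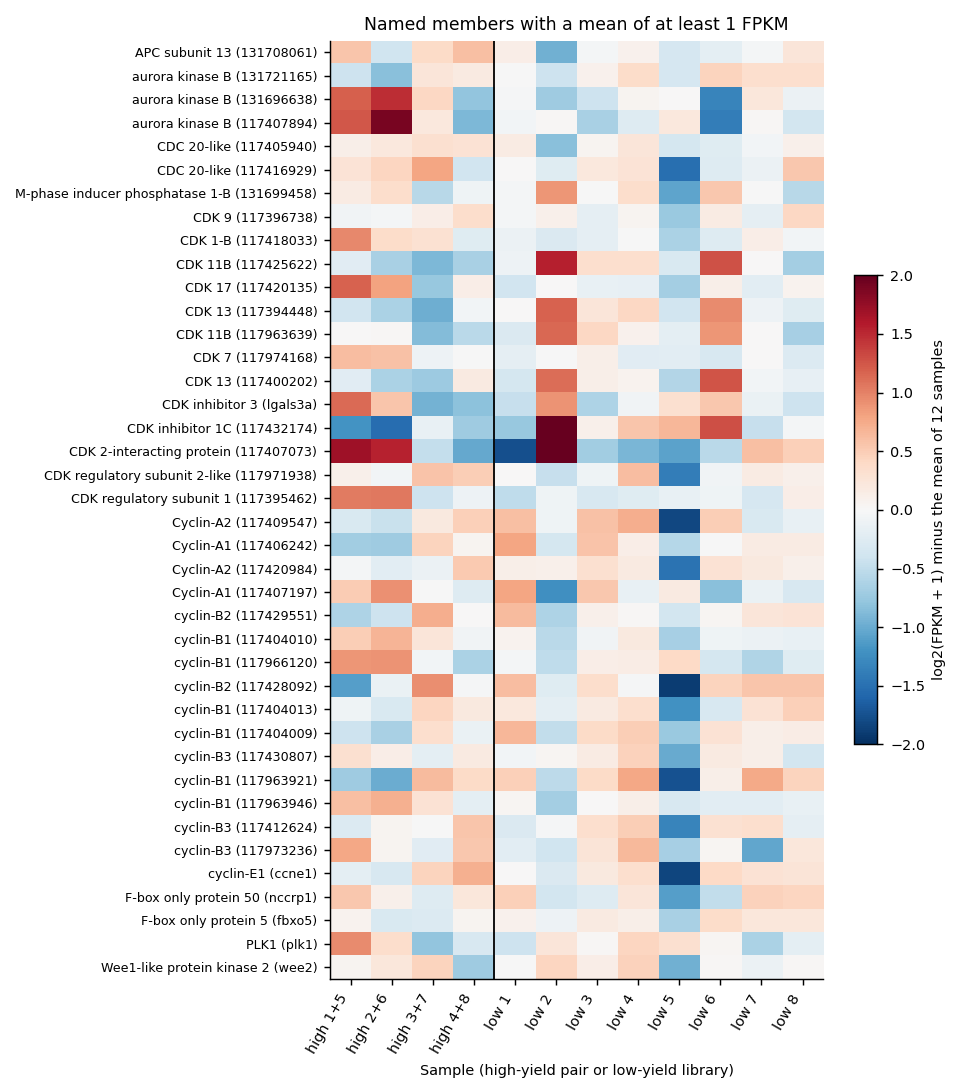
Level of each named member with a mean of at least 1 FPKM (rows) in the 4 high-yield pairs and 8 low-yield libraries (columns, split by the line), as log2(FPKM + 1) minus the mean of the 12 samples. Red is above and blue below that mean; low-yield 5 is blue in most cyclin rows, and low-yield 2 and 6 are red in the CDK11B and CDK13 rows.

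Many descriptions occurred in more than 1 row, and the rows often differed in level. The top row was picked by its mean over these same libraries, so a ratio of means cannot fall below 1. Of 58 descriptions with at least 2 rows, 51 had a top row of at least 1 FPKM on average, and in 36 of these the top row was above the second in all 16 libraries. The median ratio of the first to the second mean was 3.22, and 12 were at 10 or more. It was 103 for CDK4 inhibitor D, 63.9 for APC13, 35 for PLK3, 12.7 for CDC20 and 7.51 for PLK1. Examples of copies with close means were CKS1 (ratio 1.02), aurora C (1.04), APC subunit 16 (1.08), CDK12 (1.15), CDK1-B (1.16) and CDK2-interacting protein (1.19). In single samples these copies differed more. The ratio ran from 0.203 to 10.6 for CDK2-interacting protein, from 0.506 to 3.45 for CKS1, and from 0.645 to 2.59 for the rest of these examples. Over the 123 members of at least 1 FPKM, the median ratio of the highest to the lowest of the 12 samples was 3.73, beside 4.03 over 21259 genes of at least 1 FPKM.

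Regulators that work beside the members were followed in a list of 137 rows chosen by description. It also caught rows described as other proteins. Examples are smpdl3a, an acid sphingomyelinase-like phosphodiesterase, and LOC117417592, a leucine-rich repeat-containing receptor. The row tmem235b, described as a baculoviral IAP repeat protein, has a symbol that differs from its description. Of the 137 rows, 125 were tested and 0 passed the adjusted p (0.0% of all genes). At an unadjusted p under 0.05, 8 were higher and 5 lower in high yield (10.4%, beside 8.52% of all genes). Both fizzy-related rows, homologues of Cdh1, which keeps the anaphase-promoting complex active outside M phase, were among the 8. The abundant one, LOC117966173, had 214, 226, 143 and 186 FPKM in the high-yield pairs and 80.3 to 199.7 FPKM, with a median of 119.9, in low yield (log2 fold change 0.60, SE 0.19, unadjusted p = 0.00777, adjusted p = 0.574). The other, LOC117401195, averaged 15.1 ± 5.22 FPKM in high yield and 10.8 ± 3 in low yield (SD, n = 4 and 8). Chk2 LOC117428486, a kinase of the DNA damage checkpoint, had 624, 703, 309 and 454 FPKM in high yield and 299 to 421 FPKM, with a median of 340.0, in low yield (log2 fold change 0.56, SE 0.20, unadjusted p = 0.0116, adjusted p = 0.574). The less abundant Chk2 row LOC117427120 had a log2 fold change of 0.53 (SE 0.265). The checkpoint kinase Chk1 had 0.02 in its abundant row LOC131708095 (mean 314.9 FPKM) and -0.14 in LOC117397432.

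Among partners of the aurora kinases in the passenger complex, borealin LOC131696799 had 55.5, 96.8, 56.8 and 29.8 FPKM in the high-yield pairs and 28.2 to 49 FPKM, with a median of 41.3, in low yield (log2 fold change 0.64, SE 0.28, unadjusted p = 0.0393, adjusted p = 0.58), and 0.34 without pair 2+6. The more abundant borealin rows LOC117413007 (mean 189.7 FPKM) and LOC131701489 (57 FPKM) had log2 fold changes of -0.15 and -0.04. The borealin-2 rows LOC117424738 and LOC117425866 had 0.88 and -0.04. The survivin-like row LOC131720863 had 1927, 1644, 604 and 403 FPKM in high yield, against 1473 FPKM in low-yield 5 and 209 to 545 FPKM in the rest of low yield. Securin LOC131699646, the inhibitor of separase, had 3343, 649.6, 1699 and 887 FPKM in high yield and 630.5 to 1567 FPKM, with a median of 1332, in low yield. Shugoshin-like 1 LOC117400410, a protector of centromeric cohesion, had 74.2, 58, 17.1 and 32.8 FPKM in high yield and 19 to 29.4 FPKM, with a median of 25.7, in low yield (log2 fold change 0.86, SE 0.26, unadjusted p = 0.00476, adjusted p = 0.574). The less abundant row with this description, LOC117435248, had the opposite direction (log2 fold change -1.005, SE 0.63, unadjusted p = 0.135). It had 2.09 to 6.64 FPKM in high yield and 1.12 to 30.5 FPKM in low yield. Both separin rows, the protease that opens cohesin, were lower in high yield at an unadjusted p under 0.05. LOC117967028 had 3.19, 4.52, 2.64 and 3.04 FPKM in high yield and 2.53 to 14.1 FPKM, with a median of 6, in low yield, where libraries 2 and 6 were the highest (log2 fold change -0.98, SE 0.35, unadjusted p = 0.0136, adjusted p = 0.574).

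Of 18 rows of the MAPK cascade downstream of mos, 16 were tested and 0 had an unadjusted p under 0.05. MEK1 LOC117964269 averaged 91.2 ± 30.3 FPKM in high yield and 95.5 ± 37 in low yield. Of 38 rows of the cAMP arm, which keeps the oocyte arrested, 31 were tested. At an unadjusted p under 0.05, 1 was higher and 2 were lower in high yield (9.68%, beside 8.52% of all genes). The most abundant row of this arm was the catalytic subunit of protein kinase A LOC131706555. It had 309.5, 338, 81.5 and 199.8 FPKM in the high-yield pairs, against 504 FPKM in low-yield 2 and 151 to 317 FPKM in the rest of low yield. Phosphatase PP2A with a B55 subunit removes phosphates that CDK1 placed on other proteins, at exit from M phase. Which B55 isoform does so here was not tested. The B55 beta row LOC131699483 had 81.3, 118, 55.3 and 114 FPKM in high yield. In low yield it had 94.7 to 287 FPKM, with a median of 129.9. Its log2 fold change was -0.71 (SE 0.26, unadjusted p = 0.0178, adjusted p = 0.574). Less abundant B55 rows varied in this value. Delta rows LOC117416008 and LOC117418429 came to 0.11 and 0.24, and gamma LOC117409476 to 0.38. Alpha rows LOC117966416 and LOC117397828 came to -0.03 and -0.325. The other beta rows, LOC117431611, LOC117431823 and LOC117413316, came to -0.32, -0.31 and -0.42. Cyclin-H LOC117974042, the partner of CDK7, averaged 79.2 ± 13.2 FPKM in high yield and 62 ± 21 in low yield, SKP1 LOC131699476, a subunit of SCF ubiquitin ligases, averaged 817 ± 108 and 693 ± 117 FPKM, and BUB3 LOC117414700, a spindle checkpoint protein, averaged 189 ± 9.73 and 159 ± 31.3 FPKM (SD, n = 4 and 8).

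The counts at an unadjusted p depended on pairs 1+5 and 2+6, for the members and for all genes, whose share was 8.52% with all pairs. Without pair 1+5, 6 of 149 tested members had an unadjusted p under 0.05 (2 higher, 4 lower), beside 4.23% of all genes, and 5 of these 6 were among the 17. Without pair 2+6 there were 10 of 150, beside 4.48% of all genes, 7 of them among the 17. Without pair 3+7 there were 17 of 150, beside 9.76%, and without pair 4+8 there were 22 of 149, beside 10.6%. With DESeq2 on the summed pairs 0 members passed the adjusted p, beside 0.302% of all genes, and 25 had an unadjusted p under 0.05, beside 9.12% of all genes. When the 16 libraries were taken as independent, DESeq2 called 7 members, beside 4.32% of all genes (29 unadjusted, beside 16.7%), and edgeR called 0, beside 0.0579% of all genes (28 unadjusted, beside 19.8%). Those 7 are CDK13 LOC117394448, CKS1 LOC117395462, aurora B LOC117407894, CDK10 LOC117425075, CDK11B LOC117425622, CDK inhibitor 1C LOC117432174 and CDK7 LOC117974168.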

How the data were processed

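Ovary RNA was measured in 16 poly(A) libraries, 8 per yield group. Adapters were trimmed with cutadapt 1.9, per the submitters' processing notes. Aligner, counting program and genome build: not given in the sources used here; positions are therefore left out. The deposited table held read counts and FPKM for 41685 genes in each library, per the file headers. In 17516 genes with at least 50 counts in every library, the ratio of deposited counts to FPKM was scaled by each library's median. It then lay within 5% of the gene's median in 100.0% of values. Counts divided by a fixed gene length and library depth give this by definition, so the check cannot show how the counts were made.

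The counts of each near-identical high-yield pair (rho above 0.98 over genes with at least 10 counts in at least 8 libraries) were summed, and 4 high-yield samples were tested against 8 low-yield libraries. The labels name 8 females per group, but no label ties a library to a female, and p-values measure the spread between these samples. The test was edgeR 4.0.16 (R 4.3.3) with filterByExpr, TMM scaling and a two-sided quasi-likelihood F test, with Benjamini-Hochberg adjustment over 30009 genes and a threshold of 0.05. SEs were derived from the F statistic. Levels are deposited FPKM, averaged within a pair. The pipeline was tested on simulated data, where at this sample size most 2-fold and most 4-fold changes were not recovered, so changes of that size can go uncalled.

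The members, lists and markers were chosen by description with earlier results of these data known. Named members are the most abundant row of each class, all tested rows of cyclins A and B, CDC20 and F-box only protein 5, the 6 smallest p in each direction and, in each list of other regulators, the most abundant row. Other rows were named after their values were seen. They were other members with an unadjusted p under 0.05, some but not all of the regulators past that value, and copies of named rows. Also named were cyclin-D3, p21, CDK2, CDK4, PLK3 and further aurora and anaphase-promoting complex rows. The rows clxn, tp53inp1 and tmem235b were named because symbol and description differ. The rows smpdl3a and LOC117417592 were named because the list of regulators caught them under other descriptions.

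Alternatives were 16 independent libraries with and without the replicate number as a block, DESeq2 1.42.0, other scalings, no filter, limma 3.58.1 on log2(FPKM + 1) or log2(FPKM + 0.1) with a mean of at least 1 FPKM, and leaving out each sample or low-yield 2 and 5. DESeq2 on 16 libraries and leaving out low-yield 2 and 6 were added after the data were seen.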

Additional observations from a re-analysis of the deposited data

Results flagged for a closer look

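Within-group outliers were looked for in 106 groups with Dixon's ratio (the gap to the nearest sample over the group's range) at its 95% critical value, and 7 passed; chance gives about 1 in 20. All 7 lay in low yield. Library 2 was far above the others of its group in CDK2-interacting protein LOC117407073 (31.7 FPKM, ratio 0.702), CDK inhibitor 1C LOC117432174 (17.5 FPKM, ratio 0.551) and the protein kinase A catalytic subunit LOC131706555 (504 FPKM, ratio 0.53). Library 5 was far below the others in cyclin-A2 LOC117420984 (99.1 FPKM, ratio 0.802) and cyclin-H LOC117974042 (18.2 FPKM, ratio 0.548), and far above them in the survivin-like row LOC131720863 (1470.0 FPKM to 3 digits, ratio 0.734). Library 7 was far above the others in the WEE1-like 2 row LOC117419728 (0.592 FPKM, ratio 0.619), at a level close to 0. Libraries 2 and 5 are those with the most fibroblast, leukocyte and smooth muscle marker RNA; the part of that RNA in these values was not tested.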

How the results depend on the processing

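No member passed the adjusted p under any edgeR or limma setting. DESeq2 on summed pairs called 0 members, beside 0.302% of all genes (25 unadjusted, beside 9.12%). On 16 libraries taken as independent it called 7 of 165 members and 8 of 137 other regulators, beside 4.32% of all genes. Members at an unadjusted p under 0.05 numbered 17 in the fit reported (beside 8.52% of all genes), 28 on 16 independent libraries with edgeR (beside 19.8%), 29 with DESeq2 there (beside 16.7%), 11 with limma on log2(FPKM + 0.1) (beside 6.85%), 11 without low-yield 2 and 6 (beside 5.65%), and 6 to 22 when 1 sample was left out (beside 4.23% to 11.8% of all genes). With the replicate number as a block there were 27, beside 16.7% of all genes. The numbers do not pair the samples: same-numbered libraries correlated between -0.173 and 0.409 in their deviations from the group means, and the labels give no shared source.

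For named genes, direction and call were the same as in the fit reported in 1126 comparisons. In 9 more the direction held and the adjusted p fell under 0.05. In 78 the direction reversed, and the cause was not tested. On 16 libraries, LOC131699050 came to -0.012 and LOC117964269 to -0.016; with the replicate block lgals3a came to -0.032 and LOC117964269 to -0.016. LOC117428092 came to 0.004 with DESeq2 and with median-of-ratios scaling, and LOC117964269 to -0.061 with library size alone. With limma, lgals3a came to -0.028 (pseudocount 1) and -0.03 (0.1), and LOC117964269 to -0.015 with both. Without the filter LOC117429551 came to 0.028 and LOC117428092 to 0.027. Without low-yield 2 and 5 the values were -0.016 for ccne1, -0.013 for wee2, -0.065 for nccrp1, -0.257 for LOC131699050, -0.155 for LOC117420984, -0.129 for LOC117404013, -0.09 for LOC117412624, -0.008 for LOC117430807, -0.222 for LOC117964269 and 0.088 for LOC131706555. Without low-yield 2 and 6 they were 0.088 for LOC131699458, -0.036 for nccrp1, -0.076 for LOC117404013, -0.096 for LOC117964269 and 0.119 for LOC131706555.

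When 1 sample was left out, the log2 fold change ran between -0.229 and 0.404 for lgals3a, -0.489 and 0.206 for LOC117429551, -0.253 and 0.06 for LOC117409547, -0.161 and 0.056 for LOC131699458, -0.127 and 0.343 for plk1, -0.169 and 0.326 for wee2, -0.15 and 0.348 for LOC131699050, -0.098 and 0.147 for LOC117420984, -0.166 and 0.22 for LOC117404013, -0.025 and 0.272 for LOC117412624, -0.602 and 0.282 for LOC117428092, -0.645 and 0.047 for LOC117963921, -0.363 and 0.17 for LOC117964269, -0.074 and 0.664 for LOC131699646, and -0.286 and 0.214 for LOC131706555. Rows near 0 FPKM, such as LOC117419728, have too few counts for a level to be compared.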
